A study of Mus musculus with 8 samples.

Results

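The integrin β chains are the 8 genes *Itgb1* to *Itgb8*, taken by symbol from a count table of 54658 gene symbols, in which each of the 8 has 1 row. They were measured by RNA-Seq in cultured primary mouse chondrocytes, in 4 IL-1β and 4 vehicle samples. Articular cartilage was taken from the hips (femoral heads) of wild-type mice at 3 weeks of age. The digested cells were seeded and, the next day, given IL-1β at 1 ng/mL, or vehicle, for 24 h. The labels name no other difference between the groups. They do not say whether replicates were separate animals or cultures, so p-values refer to the spread between these samples. For each gene, edgeR estimates that spread with the help of all genes tested. Total counts per sample were 10992355 to 17104351 with IL-1β and 13970959 to 17456063 with vehicle. The 10 chondrocyte markers listed, *Col2a1* and *Acan* among them, summed to 16153 to 16776 CPM (counts scaled to the same library total) with vehicle and 4194 to 4607 CPM with IL-1β. After IL-1β all 10 were lower (adjusted p-value under 0.05, edgeR), against 19.8% of all genes tested. Markers of fibroblasts summed to 822 to 827 CPM with IL-1β and 309 to 333 CPM with vehicle, most of it *Dcn* (755 and 264 CPM). Those of Schwann cells summed to 184 to 189 and 169 to 176 CPM, most of it *Ncam1* (177 and 157 CPM). Those of endothelium summed to 9.73 to 10.5 and 13.4 to 14.5 CPM, most of it *Erg* (8.71 and 12.4 CPM). Of 3 fibroblast markers tested, 2 were higher, and of 4 Schwann cell markers 1 was higher and 2 were lower. Among all genes tested, 20.4% were higher and 19.8% lower. The part of such cells in the β chain values was not tested. In these bulk samples, fewer cells of a type and less RNA per cell cannot be told apart.

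Integrins are heterodimers of an α and a β chain that span the membrane and tie the extracellular matrix, or a neighboring cell, to the actin cytoskeleton. The short tail of most β chains binds talin and kindlin, which switch the receptor on, and the choice of β chain sets much of what the receptor binds and in which tissue it occurs. In cartilage, β1 integrins are the main receptors with which chondrocytes hold collagen, fibronectin and laminin.

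Of the 8 β chains, 6 passed the filter on low counts (more than 1 CPM in 4 or more samples), and *Itgb2* and *Itgb6* did not. After IL-1β, *Itgb7* rose, and *Itgb1*, *Itgb4* and *Itgb5* fell, while *Itgb8* did not pass the test (adjusted p-value under 0.05, edgeR's quasi-likelihood test). *Itgb3* was lower past the same threshold, but it had more than 1 CPM in 4 vehicle samples and only 2 IL-1β samples, so that it entered the test through the group in which it is high. With more than 1 CPM required in all 8 samples it was not tested, and 4 β chains were past the threshold. The 5 past it with *Itgb3* counted compare with 40.2% of the 14404 genes tested, of which 20.4% were higher and 19.8% lower. *Itgb7* alone was also a DEG, defined by a log2 fold change above 1 or below -1 beside the adjusted p-value. This is 1 of 6, against 2.86% of all genes tested that were DEGs with a rise and 5.21% that were DEGs in either direction. In 4 of the 6 β chains tested the IL-1β and vehicle samples did not overlap, with 1 higher and 3 lower, and 36.8% of all genes tested had groups that did not overlap. The median log2 fold change of the 6 was -0.20, and that of all genes tested was -0.0012. The falls of *Itgb1* and *Itgb3* lay near the threshold: 3 β chains were left past it without IL-1β replicate 3, without IL-1β replicate 4, without vehicle replicate 2 or without vehicle replicate 4.

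**Figure D1:**
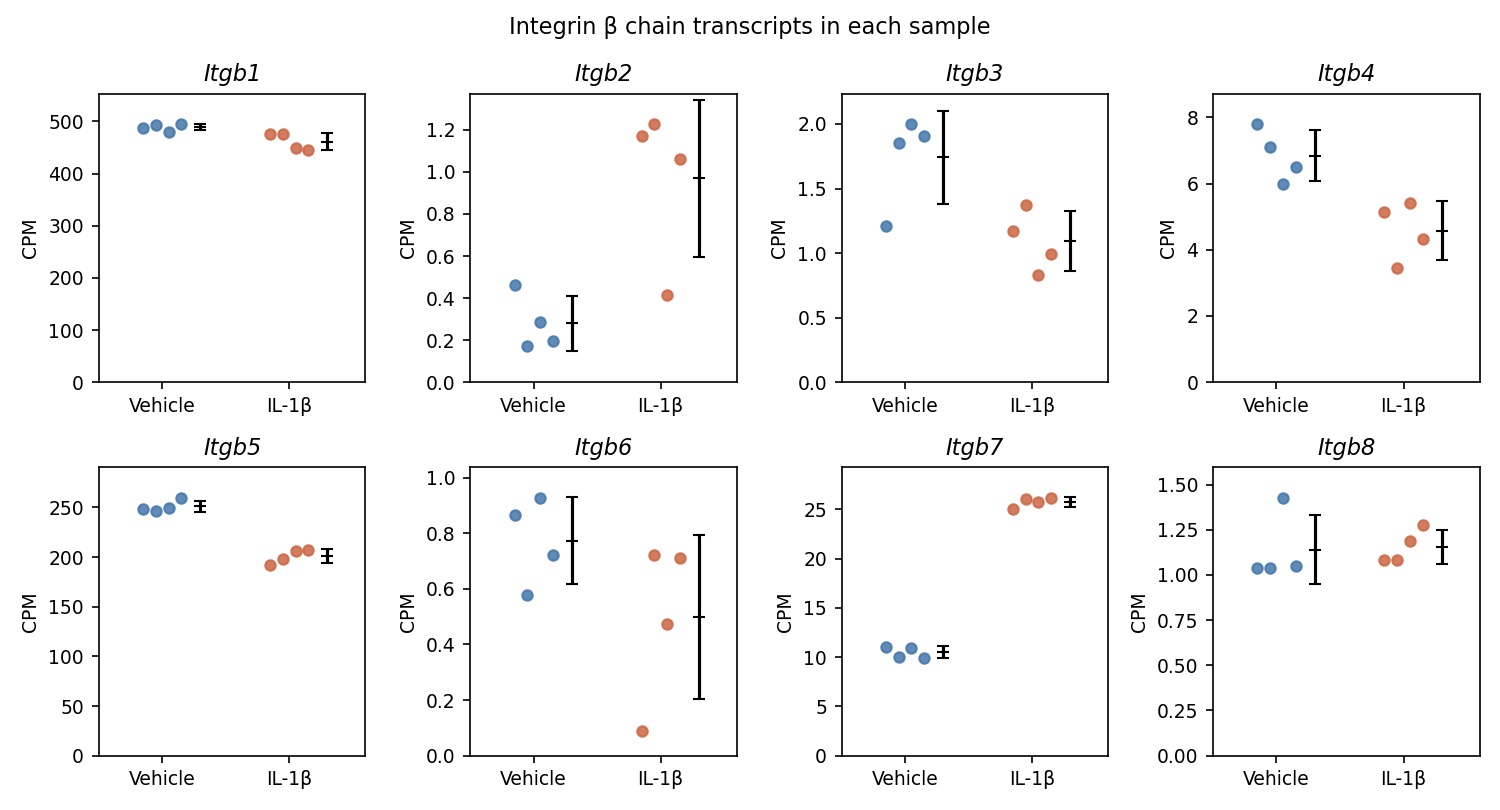
The CPM of each β chain (vertical axes, from 0, a scale of its own for each gene) in the 4 vehicle (blue) and 4 IL-1β (orange) samples, with the mean and SD (n = 4) in black. *Itgb7* with IL-1β sits at 25.0 to 26.2 CPM, above the vehicle samples at 9.92 to 11.1 CPM, while *Itgb1*, *Itgb4* and *Itgb5* sit below their vehicle samples.

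The start sites of the riser and of the 2 most abundant chains are shown first, since these 3 genes carry most of the β chain transcripts. RefSeq (GRCm38.p6) gave a promoter for 5 of the 8 symbols. Each of those below covers 250 bases before to 50 bases after a start and reads 5′ to 3′ on the strand of its gene, with matches to the GC box GGGCGG, on either strand, in capitals. The window of *Itgb7* is chr15:102231886-102232185 (minus strand), that of *Itgb5* is chr16:33829415-33829714 (plus strand) and that of *Itgb1* is chr8:128685404-128685703 (plus strand).
*Itgb7*: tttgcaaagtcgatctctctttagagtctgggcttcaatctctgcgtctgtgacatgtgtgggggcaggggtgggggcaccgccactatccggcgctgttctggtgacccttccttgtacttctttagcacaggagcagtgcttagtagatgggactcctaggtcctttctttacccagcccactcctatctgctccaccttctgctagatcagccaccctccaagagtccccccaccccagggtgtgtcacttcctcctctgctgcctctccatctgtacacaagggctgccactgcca
*Itgb5*: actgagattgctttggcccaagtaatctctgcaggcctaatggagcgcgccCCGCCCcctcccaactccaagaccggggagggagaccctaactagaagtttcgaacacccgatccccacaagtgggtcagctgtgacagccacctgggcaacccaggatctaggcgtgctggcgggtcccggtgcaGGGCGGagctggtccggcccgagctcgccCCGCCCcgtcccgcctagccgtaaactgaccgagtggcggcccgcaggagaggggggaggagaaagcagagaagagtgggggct
*Itgb1*: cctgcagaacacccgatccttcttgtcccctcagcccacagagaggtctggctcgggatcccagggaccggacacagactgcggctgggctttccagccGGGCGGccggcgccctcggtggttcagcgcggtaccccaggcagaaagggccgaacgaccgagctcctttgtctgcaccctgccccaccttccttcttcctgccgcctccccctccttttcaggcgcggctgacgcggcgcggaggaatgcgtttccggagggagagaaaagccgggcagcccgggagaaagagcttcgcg
The GC box was matched 0 times for *Itgb7*, 3 times for *Itgb5* and 1 time for *Itgb1*, and 35.7% of all 32851 promoter windows held at least 1 match. The window of *Itgb7* held 5 CpG dinucleotides, against 20 for *Itgb5* and 27 for *Itgb1*, with a GC content of 56.3%, 65.7% and 67.3%, respectively. Neither the κB consensus, the site that NF-κB binds, nor TATAAA was found on either strand of these 3 windows. Of all windows, 8.46% held the κB consensus and 13.6% held TATAAA. These are matches of letters in 1 window a gene and show neither a site in use nor its absence elsewhere.

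*Itgb7* (ENSMUSG00000001281.10) lies on chromosome 15 from 102215995 to 102231944 (GRCm38, minus strand), with 15 exons in its longest coding transcript. It encodes the β chain of α4β7 and αEβ7, receptors known from lymphocytes that home to and stay in the gut, where they bind MAdCAM-1 and E-cadherin. With IL-1β it had 25.0, 26.1, 25.8 and 26.2 CPM in replicates 1 to 4. With vehicle it had 11.1, 10.1, 10.98 and 9.92 CPM. The groups were far apart, and the lowest value after IL-1β was more than 2-fold the highest vehicle value. The means were 25.8 ± 0.516 CPM (SD, n = 4) and 10.5 ± 0.604 CPM (SD, n = 4), a log2 fold change of 1.30 (95% interval 1.15 to 1.44, standard error 0.0702, adjusted p = 3.48e-15 from edgeR). These levels rest on 1443 reads with IL-1β and 671 with vehicle, and no annotated gene overlaps its exons. On leaving out single samples, the estimate lay between 1.27 and 1.32.

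The α chains that pair with β7 were near the lowest level that could be shown. *Itga4*, which encodes the α4 chain, had 0, 1, 1 and 2 reads with IL-1β and 2, 3, 5 and 4 reads with vehicle. *Itgae*, which encodes the αE chain, had 1, 0, 1 and 1 reads with IL-1β and 6, 3, 4 and 7 reads with vehicle. Neither gene passed the filter on low counts, and both had fewer reads in the IL-1β samples, in which *Itgb7* was high. Set per gene length, the sum of *Itga4* and *Itgae* was 0.0169 ± 0.0086 CPM per kilobase with IL-1β and 0.0853 ± 0.0282 with vehicle (SD, n = 4), against 9.31 ± 0.186 and 3.79 ± 0.218 CPM per kilobase for *Itgb7*. The partner chains were thus under the β chain in every sample of both groups.

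**Figure D2:**
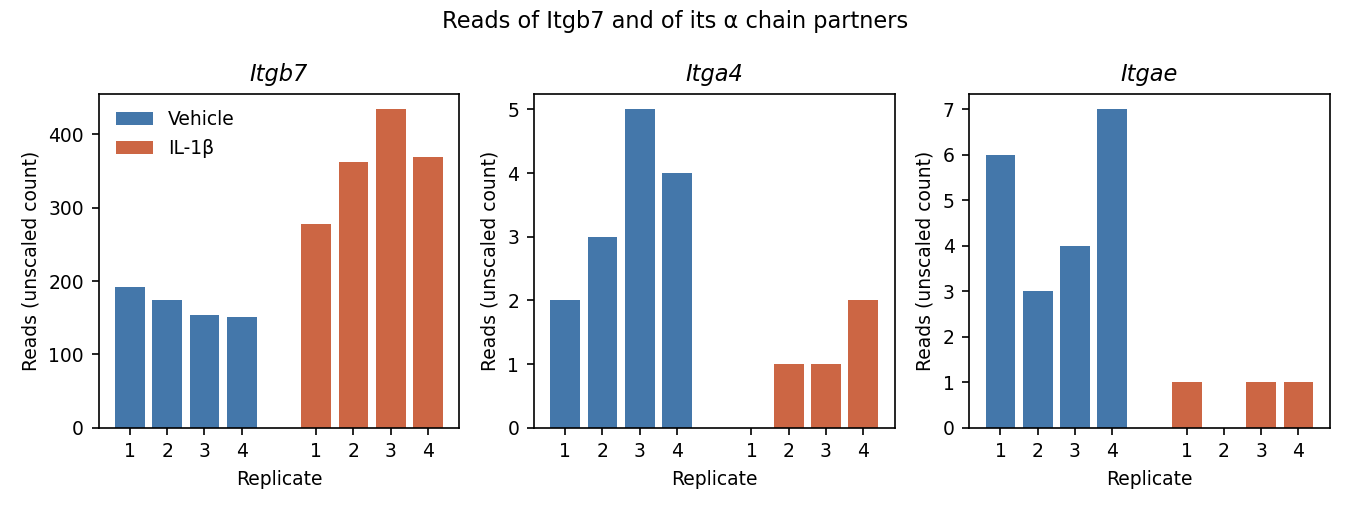
Unscaled reads of *Itgb7*, *Itga4* and *Itgae* (vertical axes, a scale of its own for each gene) in replicates 1 to 4 of vehicle (blue) and IL-1β (orange). *Itgb7* has 151 or more reads in every sample, whereas *Itga4* has at most 5 and *Itgae* at most 7.

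Ligands of β7 were low as well. *Madcam1* had 0 to 3 reads in every sample, and *Cdh1*, which encodes E-cadherin, was at or under 3 reads in all 8 samples. *Vcam1*, a ligand of α4 integrins, stood at 1.27 CPM after IL-1β against 1.16 CPM (log2 fold change 0.15, 95% interval -0.42 to 0.71, adjusted p = 0.722 from edgeR). Because lymphocytes carry β7, 15 leukocyte markers were set beside it. Of these, 4 (*Cd3e*, *Ms4a1*, *Cpa3* and *Mcpt4*) were at 0 in all samples and 8 were at or under 3 reads in every sample, the former 4 included. *Ptprc*, which encodes the leukocyte surface protein CD45, had 0 to 6 reads with IL-1β and 0 to 3 reads with vehicle. Only *Cd68*, a lysosomal protein of macrophages, passed the filter, and it rose with a log2 fold change of 0.67 (adjusted p = 8.49e-07 from edgeR). The 15 markers summed to 15.6 to 19.5 CPM with IL-1β and 12.1 to 13.6 CPM with vehicle, most of it *Cd68*. The part of such cells in the rise of *Itgb7* was not tested.

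*Itgb2* (ENSMUSG00000000290.13, chromosome 10, 77530252 to 77565708, plus strand) encodes the β2 chain of the leukocyte integrins, which bind ICAMs. It had 13, 17, 7 and 15 reads with IL-1β (1.17, 1.23, 0.416 and 1.06 CPM). With vehicle it had 8, 3, 4 and 3 reads (0.461, 0.173, 0.285 and 0.197 CPM). In 3 of the 4 IL-1β samples it lay above every vehicle sample, and IL-1β replicate 3 lay below vehicle replicate 1. Fitted without the filter on low counts, its log2 fold change was 1.70 (95% interval 0.89 to 2.51, adjusted p = 0.000357 from edgeR), in a fit in which 17.9% of 32379 genes were past the adjusted p-value and 8.92% were past it with a rise. Its α partners were no higher than a few reads: *Itgal* had 0 to 2 reads with IL-1β and 1 to 5 with vehicle, *Itgam* 0 to 3 and 0, *Itgax* 0 to 1 and 1 to 3, and *Itgad* 3 to 5 and 1 to 4. Other annotated genes share 68.7% of the exon bases of *Itgam* and 19.7% of those of *Itgad*, so that their reads are uncertain. *Icam1*, a ligand of β2 integrins on the cells that leukocytes bind to, rose from 20.6 to 56.6 CPM (log2 fold change 1.46, adjusted p = 5.53e-19 from edgeR). Of its exon bases, 11.7% are shared with other annotated genes. *Icam2* did not pass the filter, at 0.232 CPM after IL-1β against 0.312 CPM. Of the leukocyte markers given above, *Cd68* moved with *Itgb2*, whereas *Laptm5*, another lysosomal protein of leukocytes, fell from 74 to 24 reads (log2 fold change -1.43 without the filter, adjusted p = 0.000598 from edgeR). Their part in the values of *Itgb2* was not tested.

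*Itgb1* (ENSMUSG00000025809.15, chromosome 8, 128685654 to 128733200, plus strand) encodes the β1 chain, which pairs with most α chains. It had 475, 475, 449 and 445 CPM with IL-1β and 488, 493, 480 and 494 CPM with vehicle. The groups did not overlap, but the gap between the nearest samples was small against the level. The means were 461 ± 16.4 CPM and 489 ± 6.35 CPM (SD, n = 4), so that the level decreased by 5.72% (log2 fold change -0.085, 95% interval -0.15 to -0.020, adjusted p = 0.0320 from edgeR). This was the smallest change among the 5 β chains past the test, and it rested on 25699 and 31250 reads, the most of any β chain. Its adjusted p-value was 0.116 without IL-1β replicate 4 and 0.0906 without IL-1β replicate 3, and 0.0739 and 0.0675 without vehicle replicates 2 and 4, respectively.

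Several α partners of β1 had larger falls than *Itgb1* itself. Of the 18 α chains, 11 passed the filter, and 3 were higher, 6 were lower and 2 (*Itga3* and *Itga2b*) did not pass the test, with a median log2 fold change of -0.46. Of all genes tested, 20.4% were higher and 19.8% lower. Of the 6 that were lower, 4 were DEGs (*Itga6*, *Itga7*, *Itga10* and *Itga11*). Among all genes tested, 2.35% were DEGs with a fall. *Itga6*, a laminin receptor chain, fell from 169 to 79.5 CPM (log2 fold change -1.09). *Itga10*, the collagen receptor chain characteristic of chondrocytes, had a log2 fold change of -1.14, and 33.5% of its exon bases are shared with another annotated gene. *Itga7*, a laminin receptor chain, had one of -1.19, and *Itga5*, the fibronectin receptor chain, one of -0.46 (95% interval -0.54 to -0.37). The intervals of *Itga5*, *Itga6*, *Itga7* and *Itga10* each lay below that of *Itgb1*. *Itga2*, a collagen receptor chain, rose from 1.42 to 2.42 CPM (log2 fold change 0.77, adjusted p = 0.00514 from edgeR), and *Itga9* rose with a log2 fold change of 0.36. *Fn1*, which encodes fibronectin, the ligand of α5β1, fell from 39401 to 26811 CPM (log2 fold change -0.56, adjusted p = 3.26e-19 from edgeR).

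*Itgb5* (ENSMUSG00000022817.15, chromosome 16, 33829665 to 33949338, plus strand) encodes the β5 chain, which pairs with αv in a receptor for vitronectin. It had 192, 198, 206 and 208 CPM with IL-1β and 249, 246, 249.9 and 259.5 CPM with vehicle. The groups did not overlap, and the difference was several times the SD within either group. The means were 201 ± 7.23 CPM and 251 ± 5.81 CPM (SD, n = 4), so that the level decreased by 19.9% (log2 fold change -0.32, 95% interval -0.39 to -0.25, adjusted p = 2.95e-09 from edgeR). A processed pseudogene, *Gm38317*, matched 343 bases of the transcript of *Itgb5* at 99.7% identity and held 2 to 8 reads a sample, against 2133 or more for *Itgb5*.

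The α partner moved the other way. *Itgav*, which encodes the αv chain of the β3, β5, β6 and β8 integrins and of one β1 integrin, rose from 133 to 149.5 CPM (log2 fold change 0.17, 95% interval 0.10 to 0.23, adjusted p = 9.04e-05 from edgeR). The ratio of *Itgb5* to *Itgav*, both per gene length, was 4.07 ± 0.225 with IL-1β and 5.71 ± 0.102 with vehicle (SD, n = 4), with ranges of 3.82 to 4.33 and 5.60 to 5.82. The ratio was lower in every IL-1β sample. *Vtn*, which encodes vitronectin, was at or under 3 reads in all 8 samples.

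*Itgb3* (ENSMUSG00000020689.4, chromosome 11, 104608000 to 104670476, plus strand) encodes the β3 chain of αvβ3, which osteoclasts use to attach to bone, and of the platelet integrin. It had 13, 19, 14 and 14 reads with IL-1β (1.17, 1.37, 0.832 and 0.993 CPM). With vehicle it had 21, 32, 28 and 29 reads (1.21, 1.85, 2.00 and 1.91 CPM). Vehicle replicate 1 lay below IL-1β replicate 2, so the groups overlapped. The log2 fold change was -0.68 (95% interval -1.18 to -0.17, adjusted p = 0.0283 from edgeR), and the adjusted p-value was 0.0814 with DESeq2. Each CPM rests on few reads, and the adjusted p-value rose to between 0.0601 and 0.113 without IL-1β replicate 3 or 4 or without vehicle replicate 2, 3 or 4. *Spp1*, which encodes osteopontin, a ligand of αvβ3, rose from 1374 to 2394 CPM (log2 fold change 0.80, adjusted p = 2.23e-19 from edgeR). Of its exon bases, 18.8% are shared with other annotated genes. Of 7 osteoclast markers, *Ocstamp*, *Dcstamp*, *Calcr* and *Atp6v0d2* were at or under 3 reads in all samples. *Ctsk* and *Nfatc1*, which passed the filter, were both higher after IL-1β, the opposite of *Itgb3*.

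*Itgb4* (ENSMUSG00000020758.15, chromosome 11, 115974709 to 116008412, plus strand) encodes the β4 chain, whose long tail binds plectin and which pairs with α6 in the hemidesmosomes of epithelia. It had 5.14, 3.46, 5.41 and 4.33 CPM with IL-1β and 7.79, 7.11, 5.99 and 6.51 CPM with vehicle. The groups did not overlap, although IL-1β replicate 3 and vehicle replicate 3 lay close together. The means were 4.58 ± 0.877 CPM and 6.85 ± 0.775 CPM (SD, n = 4), so that the level decreased by 33.3% (log2 fold change -0.58, 95% interval -0.86 to -0.31, adjusted p = 0.000832 from edgeR), on 257 and 441 reads. An antisense lincRNA, *B230344G16Rik*, shares 537 bases (7.66%) of its exons and held 0 to 3 reads a sample.

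*Itga6*, whose product is the partner of β4, had the larger fall, with intervals that did not meet, and per gene length *Itgb4* was 0.0748 ± 0.0179 of *Itga6* with IL-1β and 0.0521 ± 0.00653 with vehicle (SD, n = 4), with ranges that overlapped. *Plec*, which encodes plectin, rose with a log2 fold change of 0.27 (adjusted p = 3.37e-09 from edgeR). *Lamb3*, which encodes a laminin chain that α6β4 binds, had a log2 fold change of -0.045 (95% interval -0.22 to 0.12), and *Lama3*, which encodes another, did not pass the filter. Of 10 epithelial markers, 3 passed the filter and 1, *Trp63*, fell, to 0.999 CPM, at the edge of the filter, and *Krt5*, *Krt14*, *Krt8*, *Cdh1* and *Cldn4* were at or under 3 reads in all samples. The epithelial markers summed to 3.96 to 5.62 CPM with IL-1β and 5.31 to 7.99 CPM with vehicle, and their part in the fall of *Itgb4* was not tested.

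*Itgb6* and *Itgb8* encode the β chains of αvβ6 and αvβ8, which release active TGF-β from its latent complex. *Itgb6* (ENSMUSG00000026971.15, chromosome 2, 60598292 to 60722643, minus strand) had 1, 10, 8 and 10 reads with IL-1β and 15, 10, 13 and 11 reads with vehicle, or 0.0901 to 0.721 and 0.578 to 0.927 CPM. The groups overlapped and no sample reached 1 CPM. The fit over all genes with a count gave it a log2 fold change of -0.57 (95% interval -1.31 to 0.17, adjusted p = 0.386 from edgeR), and a change was not detectable at this depth.

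*Itgb8* (ENSMUSG00000025321.14, chromosome 12, 119158022 to 119238802, minus strand) had 12, 15, 20 and 18 reads with IL-1β (1.08, 1.08, 1.19 and 1.28 CPM). With vehicle it had 18, 18, 20 and 16 reads (1.04, 1.04, 1.43 and 1.05 CPM). The groups overlapped, with vehicle replicate 3 the highest of the 8 samples. The log2 fold change was 0.041 (95% interval -0.46 to 0.55, adjusted p = 0.916 from edgeR), an interval that reaches from a fall to a rise.

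Genes of the TGF-β complex on which αvβ6 and αvβ8 act moved in both directions. *Lrrc32*, which encodes GARP, the protein that holds latent TGF-β on the cell surface, rose from 29.2 to 74.7 CPM (log2 fold change 1.36, adjusted p = 8.61e-19 from edgeR). *Tgfb1* rose with a log2 fold change of 0.47 and *Tgfb3* fell with one of -0.60. Other annotated genes share 12.4% of the exon bases of *Tgfb3*. *Ltbp1*, which ties the latent complex to the matrix, fell from 389 to 199 CPM (log2 fold change -0.97, adjusted p = 6.21e-20 from edgeR).

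**Figure D3:**
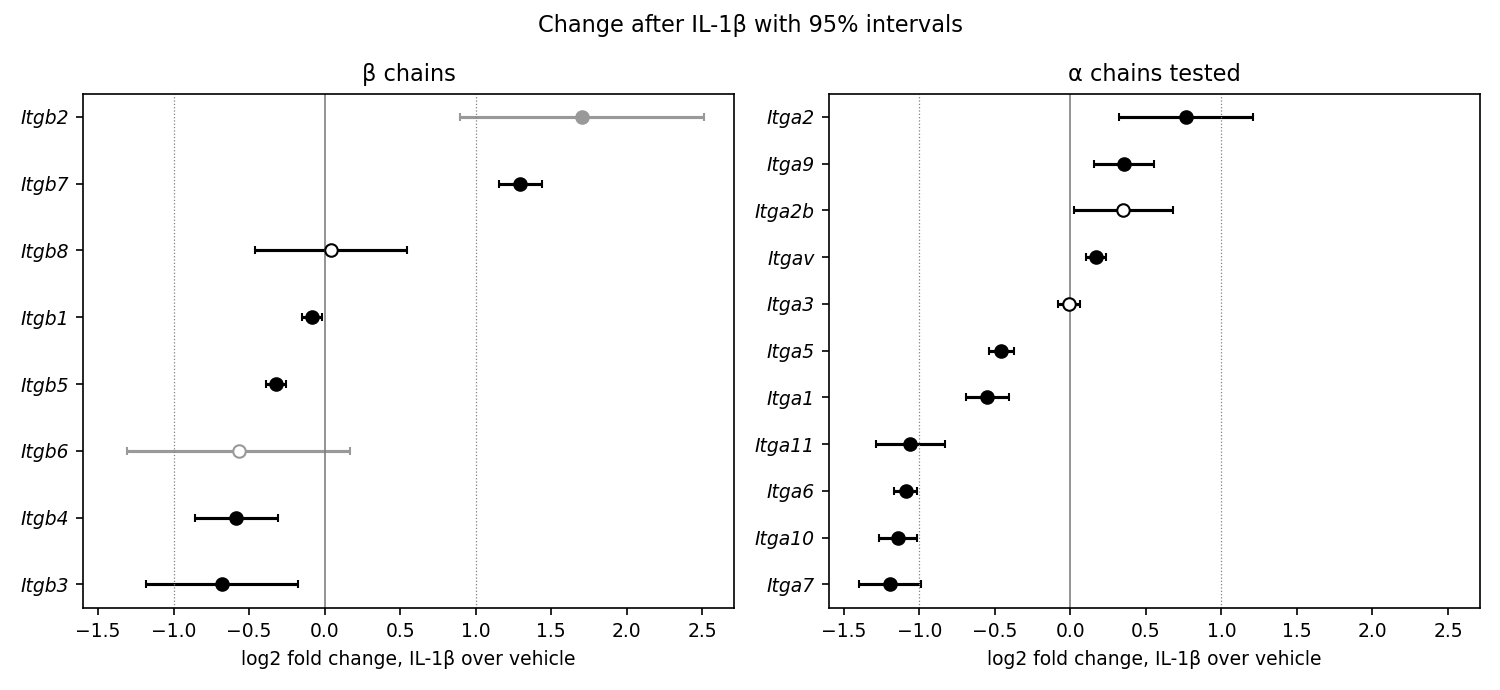
The log2 fold change between IL-1β and vehicle (horizontal axis) with its 95% interval for the 8 β chains and the 11 α chains tested. Filled points were past an adjusted p-value of 0.05, open points were not, grey points are *Itgb2* and *Itgb6* from the fit without the filter on low counts, and dotted lines mark -1 and 1. *Itgb7* lies wholly above 1, and *Itga6* and *Itga10* lie wholly below -1.

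Levels can be set between genes only per length, and the CPM was therefore divided by the gene length in kilobases. With vehicle, *Itgb1* had 120 ± 1.56 CPM per kilobase (SD, n = 4), *Itgb5* 70.7 ± 1.63 and *Itgb7* 3.79 ± 0.218. They were followed by *Itgb4* with 0.976 ± 0.111 and *Itgb3* with 0.295 ± 0.0607 CPM per kilobase. *Itgb6*, *Itgb8* and *Itgb2* came last, with 0.109 ± 0.0219, 0.103 ± 0.0173 and 0.0915 ± 0.0428 CPM per kilobase, and these 3 overlapped one another, while each of the others was apart from its neighbors in every vehicle sample. In this order, *Itgb1* ranked 281 and *Itgb5* ranked 514 among the 14404 genes tested. With IL-1β, the first 4 kept their places, and *Itgb2* came next with 0.318 ± 0.123 CPM per kilobase, overlapping *Itgb3* with 0.185 ± 0.0393. *Itgb8* and *Itgb6* came last and overlapped. The order of the 4 lowest chains depended on the length used: with the coding length, *Itgb8* came before *Itgb3*, *Itgb2* and *Itgb6* after IL-1β, with 0.175%, 0.160%, 0.145% and 0.0735% of the summed level, whereas with the gene length *Itgb8* held 0.0581%.

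**Figure D4:**
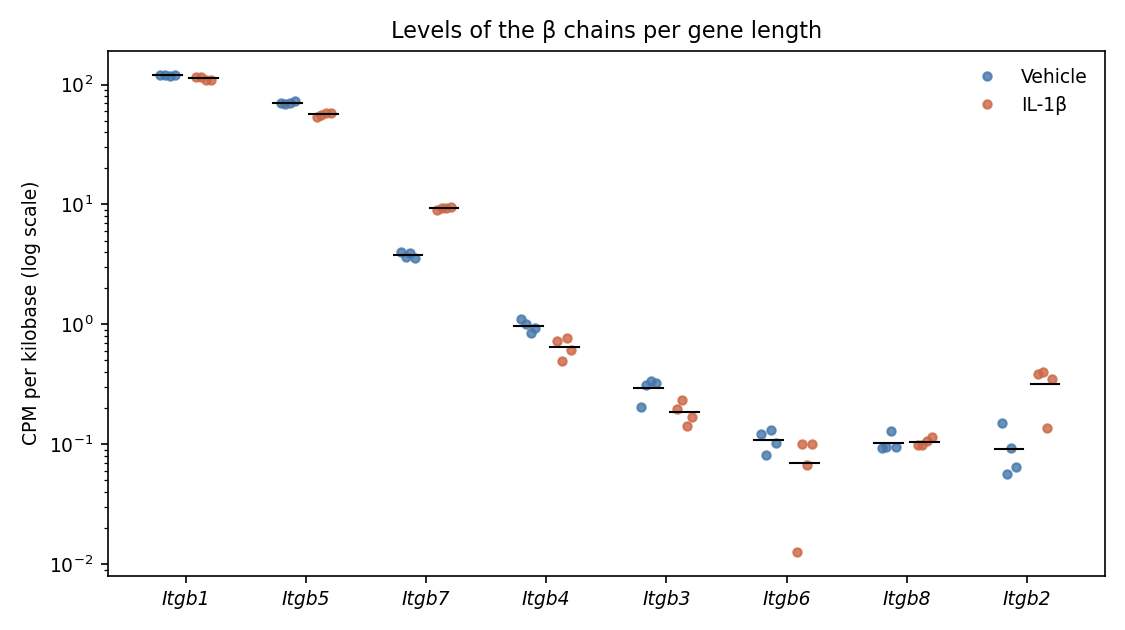
The level of each β chain per gene length (vertical axis, CPM per kilobase, log scale) in each vehicle (blue) and IL-1β (orange) sample, in the order of the vehicle means, with the group means as black lines. *Itgb1* and *Itgb5* stand at 54.1 CPM per kilobase or more in every sample, *Itgb7* at 3.58 to 9.45, and the other 5 chains at 1.11 or less.

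*Itgb1* and *Itgb5* together made up most of the β chain transcripts. With vehicle, *Itgb1* held 61.2 ± 0.506% of the summed level per kilobase, *Itgb5* 36.1 ± 0.521% and *Itgb7* 1.94 ± 0.13% (SD, n = 4). With IL-1β, *Itgb1* held 62.7 ± 1.54%, *Itgb5* 31.4 ± 1.44% and *Itgb7* 5.17 ± 0.129%. The shares of *Itgb1* overlapped between the groups, at 60.8 to 61.9% and 61.2 to 64.3%, whereas those of *Itgb5* and of *Itgb7* did not. *Itgb1* exceeded *Itgb7* 31.7 ± 2.18-fold with vehicle and 12.1 ± 0.593-fold with IL-1β. The summed level of the 8 β chains was 196 ± 2.4 CPM per kilobase with vehicle and 180 ± 2.19 with IL-1β. That of the 18 α chains was 85.03 ± 1.98 and 65.2 ± 1.63. The ratio of β to α per kilobase was thus 2.30 ± 0.0342 with vehicle and 2.76 ± 0.0842 with IL-1β. The size of this ratio rests on dividing by length. In CPM not divided by length, the β chains summed to 752 to 774 with vehicle and the α chains to 603 to 637. With IL-1β these sums were 687 to 707 and 466 to 486.

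Proteins that bind the β tails were compared as a list of 29 genes, of which 25 passed the filter, 12 were higher, 6 were lower and 7 did not pass the test, with a median log2 fold change of 0.077, against 20.4% higher and 19.8% lower among all genes tested. *Tln1*, which encodes the main talin, rose with a log2 fold change of 0.22, and *Tln2* fell with one of -0.38. *Fermt2*, the kindlin of mesenchymal cells, fell with one of -0.18. *Fermt3*, the kindlin of blood cells, had a log2 fold change of -0.029 (95% interval -0.57 to 0.51). *Fermt1*, the epithelial kindlin, was at or under 3 reads in all samples. *Rap1b*, a small GTPase that brings talin to the β tail, had the largest rise of the list (log2 fold change 0.66), followed by the kinase gene *Src* (0.58), and *Tns1* (-0.56) and *Tns2* (-0.45), which encode tensins, had the largest falls. *Itgb1bp1*, which encodes an inhibitor of β1, had a log2 fold change of 0.026 (95% interval -0.18 to 0.23, adjusted p = 0.870 from edgeR). Other annotated genes share 16.9% of its exon bases. They share 89.7% of those of *Ilk*, which did not pass the test, and 25.5% of those of *Vcl*, which was lower. The reads of these genes are uncertain to that extent.
Of the 20 ligand genes, 14 passed the filter, 4 were higher, 7 were lower and 3 did not pass the test, with a median log2 fold change of -0.20, beside the same 20.4% and 19.8% of all genes tested. *Icam1* and *Lrrc32* had the largest rises, and *Thbs1* (log2 fold change -1.66) and *Tnc* (-1.19), whose proteins bind β1 and αv integrins, had the largest falls.

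The study follows miR-146a-5p, whose seed (bases 2 to 8, in capitals) pairs with AGTTCTC in a 3′ UTR, so 1 coding transcript of each β chain, the longest, was searched in its 3′ UTR. The mature sequence (RefSeq, GRCm38.p6) and the 1 match found, with 10 bases on either side and the match in capitals, were as follows.
mmu-miR-146a-5p: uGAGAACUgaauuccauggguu
*Itgb6* site: gaaagaatccAGTTCTCccagagtgac
The site of *Itgb6* spans chr2:60599734-60599760 (GRCm38, minus strand) with its flanks, at nucleotides 735 to 741 of a 3′ UTR of 2193 nucleotides. The other 7 β chains, *Itgb7* and *Itgb5* included, held no match, and 11.2% of the 11782 tested genes with a 3′ UTR held at least 1. The paper's target search also took shorter sites, which were not searched here. *Itgb6* is 1 of the 2 chains under the filter on low counts, and its change was not told apart from 0.

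The genes most like a β chain across the 8 samples were named by Pearson's r of log2 CPM among genes with a mean of at least 5 CPM. The points fall into the 2 treatment groups, so these values largely describe genes with the same contrast. For *Itgb7* they were *Nbl1* and *Abca1* (r = 0.999 for both), among 206 genes with an r of 0.99 or more. For *Itgb5* they were *Ttyh2* (0.997) and *Tenm3* (0.996), for *Itgb1* *Fam208b* (0.984) and *Uhmk1* (0.981), and for *Itgb4* *Ints6* (0.977) and *Cdkn1b* (0.964). For *Itgb3*, *Llgl2* (0.962) and *Desi1* (0.951) were closest, and for *Itgb8*, *Tox4* and *Ruvbl1* (0.887 for both), on few reads.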

How the data were processed

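Per the labels and the methods, the authors used cutadapt for trimming, STAR for alignment to mm10 (GENCODE vM20) and featureCounts for counting. The deposited table holds whole-number counts for each gene symbol, without scaling, beside the gene length in bases. Whether the counts precede or follow the RUVseq correction named in the methods is not given in the sources used here.

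Groups follow the treatment label. The main test was edgeR's quasi-likelihood test (edgeR 4.0.16, R 4.3.3) after TMM normalization, with a single term for treatment. It covered 14404 genes, those with more than 1 CPM in 4 or more samples, and p-values were adjusted by Benjamini-Hochberg over all of them. *Itgb2* and *Itgb6*, and beside them *Itga4*, *Itgae* and *Laptm5*, were fitted over the 32379 genes with at least 1 count. CPM was taken from the TMM-scaled total. Standard errors are the log2 fold change over the root of the F statistic, which is approximate at low counts. In simulated counts of 14404 genes with the same dispersion for each, 200 were changed by a log2 fold change of 2. There edgeR recovered 100% with 0 false calls, where a call needed a log2 fold change above 1 or below -1 beside the adjusted p-value. The large change and this threshold left little room for a miss or a false call. That simulation did not cover smaller changes, calls by the adjusted p-value alone, or the fit without the filter on low counts. The smallest abundance shown was set at 3 counts, or 0.172 to 0.273 CPM, which covers counting error only.

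Positions, overlaps and 3′ UTRs came from GENCODE vM21 (GRCm38), whose exon length equalled the deposited length for all 8 β chains. Similar transcripts were searched with blastn 2.17.0 (90% identity over 100 bases).

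The 8 β chains and the lists were chosen with earlier results of these data known. The genes named were the β chains, partners and ligands fixed for each of them. To these came the 2 largest rises and falls past the test in the α chain, tail and ligand lists. *Laptm5*, *Ilk*, *Vcl*, the α chains *Itga2b*, *Itga3* and *Itga11*, and the other markers named beside a result were chosen after their values were seen. 1 of the ligands fixed is not reported here. Alternatives were DESeq2 1.42.0, other normalizations and filters, the replicate number as a block, 1 factor of unwanted variation, a log2 fold change beyond 2, a test against a log2 fold change of 1 (glmTreat), other gene lengths, and each sample left out.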

Additional observations from a re-analysis of the deposited data

Results flagged for a closer look

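In *Itgb8*, vehicle replicate 3 had 1.43 CPM, against 1.04 to 1.05 CPM in the other vehicle samples, further than Dixon's ratio allows at its 95% critical value for 4 samples. Single samples also stood apart for *Itga9* in vehicle replicate 3 (10.8 CPM, against 8.48 to 8.78), *Jam3* in vehicle replicate 2 (12.5 CPM, against 9.20 to 9.69), *Lamb3* in IL-1β replicate 1 (12.0 CPM, against 15.04 to 15.6) and *Ptk2* in IL-1β replicate 3 (96.3 CPM, against 102 to 103). These are 5 of 118 groups of 4 values, and chance flags about 1 in 20, or 5.9 here. The causes were not tested.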

How the results depend on the processing

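*Itgb4*, *Itgb5* and *Itgb7* kept their direction and stayed past an adjusted p-value of 0.05 under all 16 alternatives run for each, with log2 fold changes of -0.69 to -0.47, -0.34 to -0.30 and 1.27 to 1.32. With single samples left out, 3 to 5 β chains were past the threshold and 1 was a DEG in each case. The log2 fold change of *Itgb1* was then -0.10 to -0.068 and that of *Itgb3* -0.83 to -0.55, and the calls lost are those named above. *Itgb3* stood at -0.68 with DESeq2 (adjusted p = 0.0814). The log2 fold change of *Itgb8* was -0.0068 without IL-1β replicate 4 and -0.0014 without vehicle replicate 1, and lay between -0.0068 and 0.15 with single samples left out. Without the filter on low counts 2 β chains were DEGs, the second being *Itgb2*, and with a log2 fold change beyond 2 there were 0. The causes were not tested beyond what each setting changes by construction.

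With CPM not divided by length, the shares of *Itgb1*, *Itgb5* and *Itgb7* were 66.2%, 28.9% and 3.70% with IL-1β and 64.2%, 33.0% and 1.38% with vehicle. With the coding length they were 66.9%, 28.5% and 3.70%, and 65.0%, 32.7% and 1.38%. The share of *Itgb8* then moved from 0.0581% to 0.175% with IL-1β and from 0.0526% to 0.158% with vehicle. Both groups carry replicate numbers 1 to 4. With the replicate block, 5 β chains were past the threshold and 1 was a DEG, as without it. Samples that share a number did not deviate together (mean r of their deviations -0.0221, against 0.0074 for the remaining pairs), so the numbers gave no sign of pairing. Depth limits *Itgb2*, *Itgb3*, *Itgb6* and *Itgb8*, each at 32 or fewer reads in any sample.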
